A study of Mus musculus with 6 samples.

Results

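The replication-dependent histone genes are the clustered genes for the linker histone H1 and the core histones H2A, H2B, H3 and H4. They were taken by symbol from the RefSeq annotation of GRCm38.p6, as the protein-coding genes whose symbols follow the patterns Hist1h to Hist4h, H1f1 to H1f6, H2ac, H2bc, H3c or H4c. The rule found 63 genes of 21887 protein-coding genes. Neighbouring members at most 200 kb apart were joined, which gave 4 clusters. All 63 had a position, and no filter on low values was applied to them.

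Dividing cells make most of their histone protein in S phase, from many near-identical gene copies that sit side by side. Most of these genes are short and lack introns, their mRNAs end in a stem-loop bound by SLBP in place of a poly(A) tail, and NPAT, a substrate of cyclin E-CDK2, gathers at the clusters in histone locus bodies. H2A and H2B genes often face away from each other and share the stretch between their starts. H3K4me3, histone H3 trimethylated at lysine 4, marks the promoters of active and poised genes, and p300 is a histone acetyltransferase found at active enhancers and promoters.

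The data are from B16, a mouse melanoma cell line, by CUT&Tag, in which an antibody guides a transposase to cut and tag chromatin in place. The values come from the peak lists of unmodified (WT) cells, 1 list for H3K4me3 and 1 for p300. The other 4 libraries, for H3K9me3 in B16 cells titled TdgKO, Trp53KO, TdgTrp53DKO and WT, were not analysed here, so no genotypes are compared. With 1 library per antibody there is no replicate check and no test between conditions, and every difference below is a description of these 2 lists. The members were picked by symbol, but the group was proposed with its peak counts known, so its counts support nothing by themselves.

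The H3K4me3 list held 27019 peaks on nuclear chromosomes and the p300 list 6512. The lists give no read totals. From each peak's fold and p-value the reads at its summit were worked out, with a median of 80.0 in the H3K4me3 list and 39.0 in the p300 list, and no listed summit held fewer than 15 and 14 reads in those lists. A gene counted as marked when a peak came within 1 kb of either of its annotated ends. Of the pigment cell markers 6 of 7 had H3K4me3 at an end. The exception, Mlana, which encodes a melanosome protein, had it inside the gene. Of 13 markers of epithelium, fibroblasts, leukocytes and endothelium 1 did, Col1a1, a collagen gene. With peaks inside genes also counted, 7 of 7 pigment cell markers and 5 of the 13 others had H3K4me3.

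H3K4me3 lay at the ends of 35 of the 63 histone genes, and p300 at the ends of 27. Of all protein-coding genes 50.5% had H3K4me3 at an end, against 55.6% of the histone genes (exact 95% binomial interval 42.5 to 68.1). For p300 the share was 42.9% of the histone genes (30.5 to 56.0) and 13.5% of all protein-coding genes. All 27 histone genes with p300 also had H3K4me3, so 42.9% had both, and 13.4% of all protein-coding genes did. Of the histone genes with H3K4me3, 77.1% also had p300 (27 of 35, 59.9 to 89.6), against 26.3% of the other protein-coding genes with H3K4me3 (2899 of 11010). With all peaks counted, the share with H3K4me3 thus stood near that of all genes, and the share with p300 stood above it. Both change when only peaks at or above the list's median fold count: 3.17% of the histone genes then had H3K4me3, against 34.4% of all protein-coding genes, and 1.59% had p300, against 6.93%. At or above the median −log10 q, 14.3% of the histone genes had H3K4me3, against 42.3%, and 14.3% had p300, against 6.50%. Members that share a peak are not independent, so these intervals cover counting error only and are too narrow.

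Histone genes are short, with a median of 492 bp between their annotated ends, against 17.2 kb for the other protein-coding genes, so that their ends lie close together and 1 peak can serve a whole gene. Of the 63, 58 were at most 1 kb long. Among other protein-coding genes of at most 1 kb, 3.09% of 1519 had H3K4me3 at an end and 0.987% had p300. These genes were picked by length only, not by kind of gene or by activity, so other differences remain. At the 35 marked histone genes the H3K4me3 peaks covered a median of 78.7% of the gene, 12 genes were covered whole, and 4 had no base covered.

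**Figure D1:**
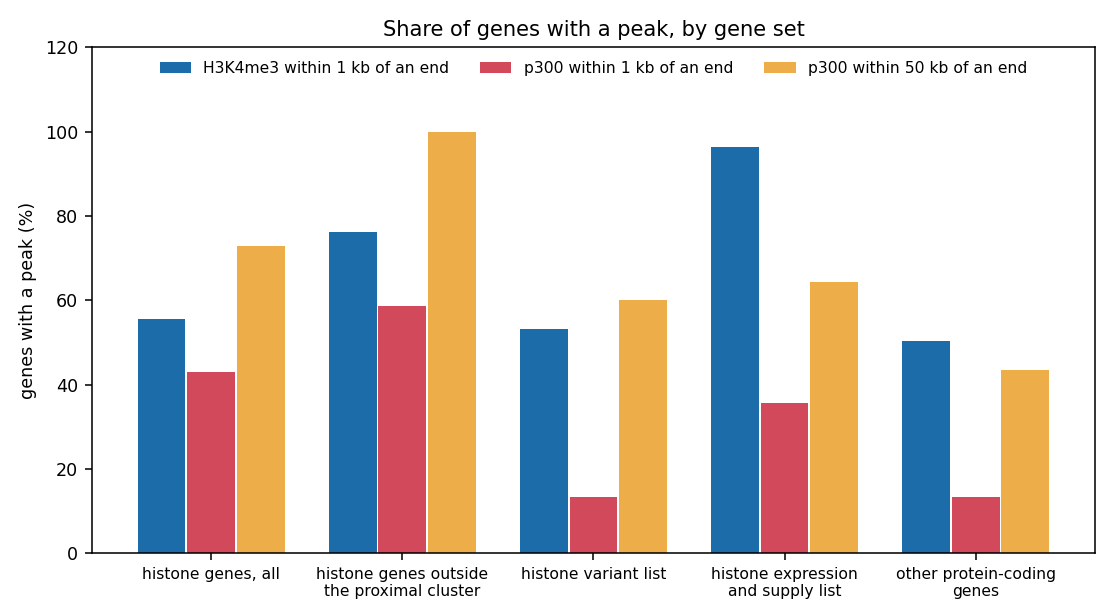
Percent of genes with an H3K4me3 or p300 peak near an end, for the 63 histone genes, the 46 of them outside the proximal chromosome 13 cluster, 15 histone variant genes, 28 genes of histone expression and supply, and all other protein-coding genes. The 46 are those left after a cluster without peaks at gene ends was taken out, a split not planned beforehand. The p300 bar of the histone genes stands at 42.9% and that of other protein-coding genes at 13.4%, while their H3K4me3 bars stand at 55.6% and 50.4%.

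The counts at gene ends over all members join clusters with different counts. In the chromosome 3 cluster all 10 genes had both marks. In the proximal cluster of chromosome 13, the one nearest the start of the chromosome, none of 17 genes had either. The middle cluster, of 5 genes, had H3K4me3 at 3 and p300 at 1. The distal cluster, of 31 genes, had H3K4me3 at 22 and p300 at 16. Outside the proximal cluster 35 of 46 histone genes had H3K4me3 (76.1%) and 27 had p300 (58.7%). This split was not planned beforehand, and leaving out 17 genes without peaks raises both shares by itself.

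The chromosome 3 cluster runs from 96219885 to 96270192 (mm10, as are all positions here), 50.3 kb with 4 H2A, 2 H2B, 3 H3 genes and 1 H4 gene. It held 8 H3K4me3 and 5 p300 peaks at gene ends. Peaks of H3K4me3 covered 17.1% of the span and those of p300 14.3%. The proximal cluster on chromosome 13 runs from 21715711 to 21833475, 118 kb with 1 H1, 5 H2A, 5 H2B, 2 H3 and 4 H4 genes. The middle cluster lies 202 kb further on, at 22035122 to 22043658, and the distal cluster 1487 kb beyond that, at 23531044 to 23934913. The distal cluster spans 404 kb and had 16 H3K4me3 and 10 p300 peaks at gene ends. All peaks of each mark covered 4.04% and 2.26% of its length. That length includes the stretch between H1f1, which ends at 23764412, and H2bc1, which starts at 23933725. The limit of 200 kb joined them, so both percentages depend on it.

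**Figure D2:**
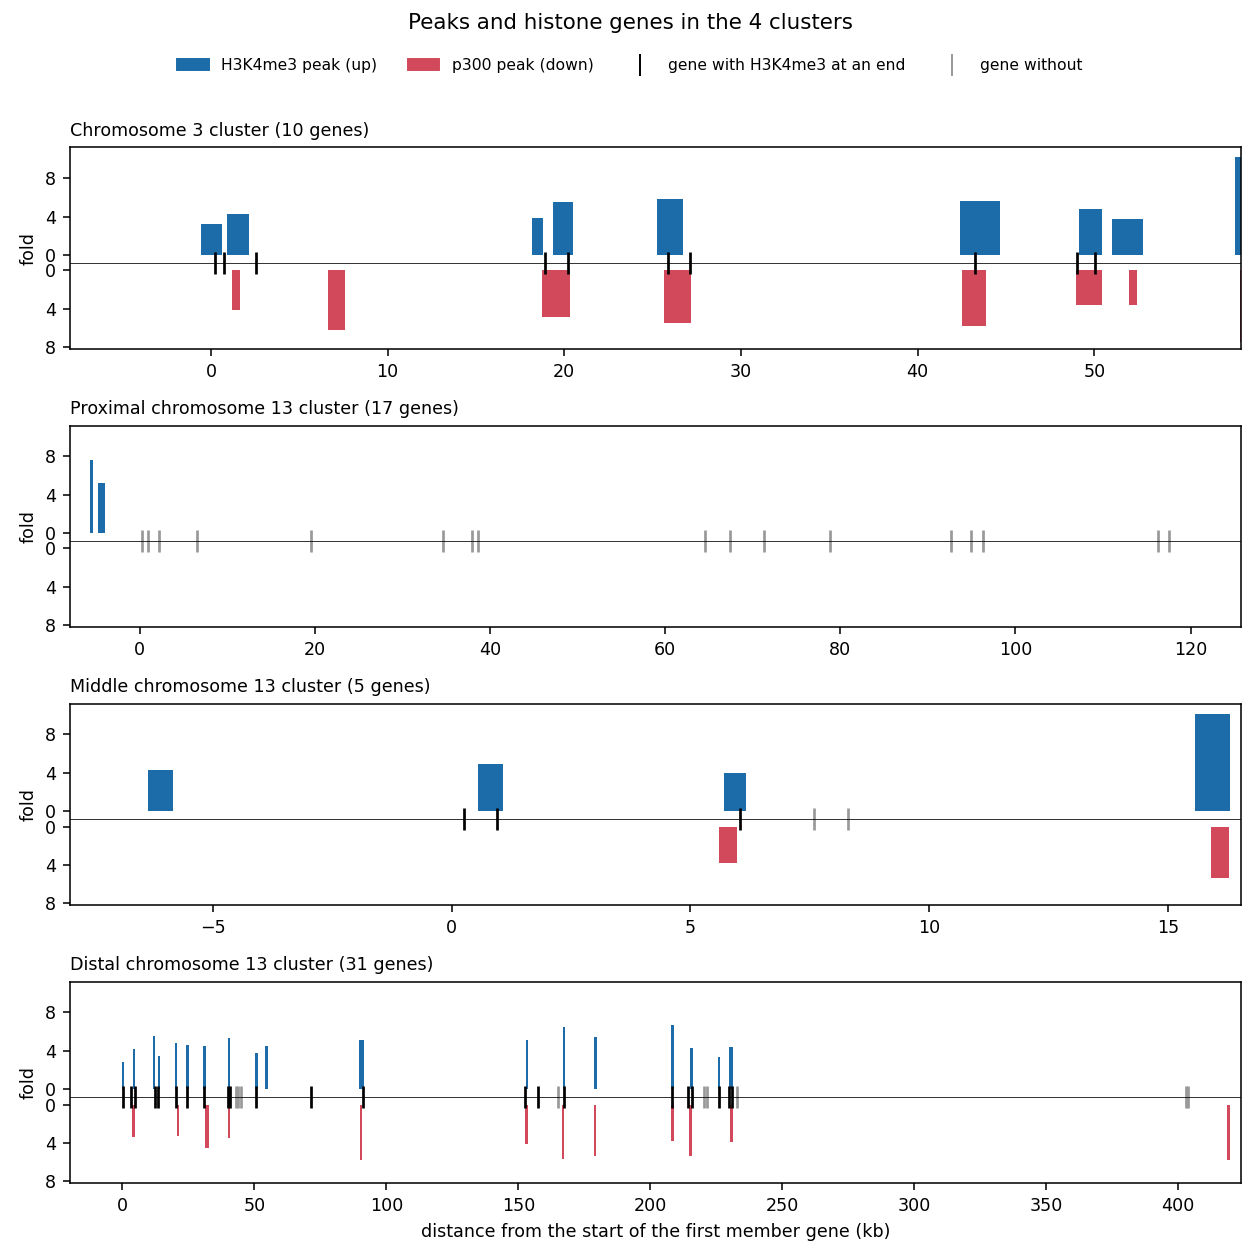
Maps of the 4 clusters, with distance in kb from the first histone gene on the x axis and the authors' fold enrichment on the y axis, H3K4me3 peaks drawn upward and p300 peaks downward. Black ticks are histone genes with H3K4me3 at an end and grey ticks those without; all 17 ticks of the proximal chromosome 13 cluster are grey, and its 2 visible H3K4me3 peaks lie before its first gene.

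Counting each shared peak once, 26 H3K4me3 peaks and 16 p300 peaks lay at the ends of histone genes. Of the 26 H3K4me3 peaks 13 reached at least 2 histone genes (50.0%), while 16.6% of the H3K4me3 peaks at other gene ends reached at least 2 protein-coding genes. For p300 these shares were 10 of 16 (62.5%) and 23.0%. No peak reached more than 3 histone genes. The peaks that reached 3 were those at H2ac21, H2ac20 and H2bc21, neighbours at the start of the chromosome 3 cluster. There 1 H3K4me3 summit and the p300 summit fell on the same base.

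Within 50 kb of an end, 57 of the 63 histone genes had an H3K4me3 peak (90.5%), against 75.2% of all protein-coding genes. A p300 peak lay within 50 kb of 46 (73.0%), against 43.6% of all protein-coding genes. The 46 were all the genes outside the proximal cluster, and its 17 genes were those without. Distinct peaks within 50 kb numbered 50 for H3K4me3 and 23 for p300. They were 14 H3K4me3 and 9 p300 peaks around the chromosome 3 cluster, 5 and 0 around the proximal, 9 and 2 around the middle, and 22 and 12 around the distal cluster.

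The proximal cluster lay in an H3K4me3-free stretch of 144 kb, from 21711797 to 21855360. Of the 26998 gaps between neighbouring H3K4me3 peaks 3021 were at least as long (11.2%), and the median gap was 22.5 kb. For p300 the stretch without a peak was 2404 kb, and 234 of 6491 p300 gaps were at least as long (3.60%). Both percentages count gaps. Long gaps hold more of the genome than short ones, so a larger part of it lies in such gaps. That part was not computed. The nearest p300 peak was 207246 to 324538 bp from the genes of the proximal cluster. The nearest H3K4me3 peak was 3915 to 71119 bp from them. H2bc1 and H2ac1 of the distal cluster lay farther from an H3K4me3 peak, at 171508 and 172220 bp. A long distance to H3K4me3 was thus not particular to the proximal cluster. H3K4me3 peaks did flank the cluster: all 5 within 50 kb lay within 1 kb of tRNA genes, with folds of 4.45 to 7.60. Of the 7 tRNA genes there 6 had H3K4me3, some through a shared peak. The share over all tRNA genes was not computed. The linker histone gene of the cluster is H1f5. Its other members are H2ac13, H2ac15, H2ac22, H2ac23, H2ac24, H2bc13, H2bc14, H2bc15, H2bc22, H2bc23, H3c10, H3c11, H4c11, H4c12, H4c17 and H4c18.

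Near-identical copies can lose reads that a pipeline discards or shares between places, and no source used here says how such reads were treated. In the proximal cluster 5 of 17 promoter windows shared a run of at least 150 bases with another window (H2bc23, H2ac23, H4c17, H4c18 and H2ac24). The other window was in the same cluster or at H4bc24, which adjoins it. Of the 17, 10 shared no run of 50 bases. Only promoter windows were compared, so these counts say nothing of sequence shared within the genes. Among all unmarked histone genes 5 of 28 windows shared such a run of at least 150 bases (17.9%), and among marked ones 4 of 31 (12.9%). Those 4 are H3c15 with H3c14 and H2ac19 with H2ac18, a duplicated pair whose peaks are among the strongest of the group. Reads of its copies cannot be assigned with certainty, so the values of these 4 genes are uncertain. The part of shared sequence in the absence of peaks was not tested.

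Outside the proximal cluster 11 histone genes had no H3K4me3 at an end, and none of the 11 had p300. Of these, 3 are known mainly from testis: H1f6, the testis linker histone H1t, and the H2A and H2B genes H2ac1 and H2bc1. The other 8 were H1f1, a linker histone gene, H2ac11 and H2bc11 of the middle cluster, and H2bc7, H2ac7, H3c4, H2ac4 and H3c2 of the distal cluster. They lay in runs: H2bc7, H2ac7 and H3c4 are neighbours, as are H2ac4 and H3c2, and H1f1, H2bc1 and H2ac1 close the distal cluster. Without the testis genes and the proximal cluster, 35 of 43 histone genes had H3K4me3 and 27 had p300. Neither set left out held a marked gene, so these shares are raised by that choice. The limit of 1 kb decides few members. The farthest marked genes were H2ac10, 803 bp from an H3K4me3 peak, and H3c3, at 696 bp, and the nearest unmarked ones were H2ac11 at 1182 bp and H1f1 at 1451 bp. An H3K4me3 peak overlapped 31 of the 35. For p300, H2ac21 at 741 bp was the farthest inside the limit and H1f6 at 1162 bp the nearest outside it.

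By class, each kind of nucleosome subunit had marked and unmarked copies. Of the linker H1 genes 3 of 6 had H3K4me3, of the H2A genes 8 of 17, of the H2B genes 8 of 16, of the H3 genes 8 of 12 and of the H4 genes 8 of 12. With p300 were 2 H1, 7 H2A, 6 H2B, 7 H3 and 5 H4 genes. Outside the proximal cluster all 8 H4 genes had H3K4me3, against 8 of 10 H3, 8 of 11 H2B, 8 of 12 H2A and 3 of 5 H1 genes. Classes share peaks, and with so few genes in each these shares cannot be ordered. Every H4 gene so marked had at least 72.0% of its length under H3K4me3. The lowest H3K4me3 fold of the group, 2.83, was at an H4 gene, H4c8, and so was the second highest, 6.52, at H4c3.

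**Figure D3:**
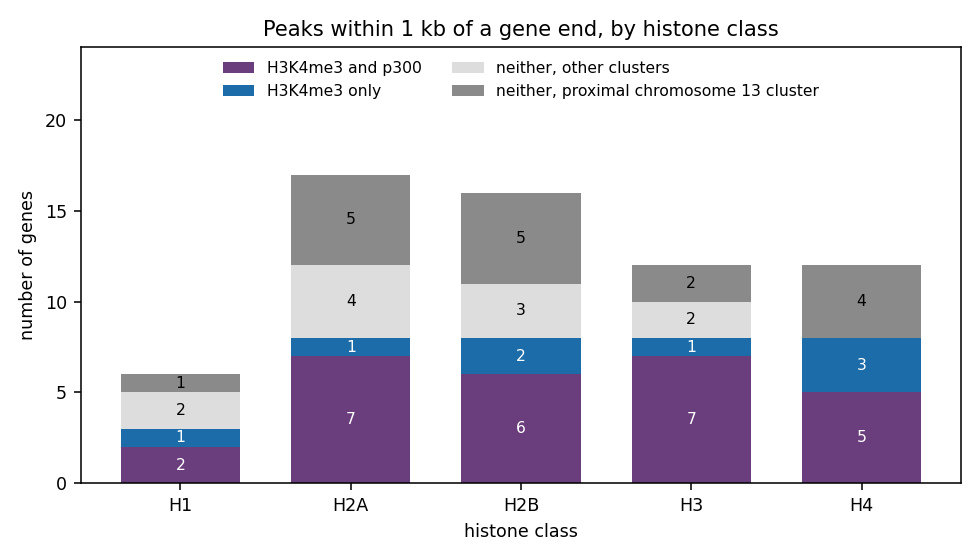
Number of histone genes of each class with both marks, with H3K4me3 only, or with neither at an end; genes with neither are split into those of the proximal chromosome 13 cluster and those of the other clusters. The H4 bar has no gene with neither mark outside the proximal cluster, and the H2A and H2B bars have 4 and 3.

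Of 9 H2A-H2B pairs of known strand that face away from each other, with 163 to 280 bp between their starts, 2 had an H3K4me3 peak at both genes and 7 had none at either. No pair had H3K4me3 at only 1 of its genes, as a single peak reaches both at this spacing. The marked pairs were H2ac12-H2bc12 in the middle cluster, under a peak of fold 4.88, and H2ac8-H2bc8 in the distal cluster, under a peak of fold 5.31. The H2ac8-H2bc8 pair also had p300, with a fold of 3.45. The unmarked pairs were 4 of the proximal cluster and H2ac11-H2bc11, H2bc7-H2ac7 and H2bc1-H2ac1. H2bc21 and H2bc4 have no strand in the table, so the neighbours H2ac20-H2bc21 and H2ac6-H2bc4, each under shared peaks of both marks, are not among the 9.

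The authors' fold enrichment, as read here, sets the reads at a summit against a background, and it is each peak's own value. At H1f2, a linker histone gene, the H3K4me3 fold was the highest of the group at 6.66, over 1395 bp and with 101 reads at the summit. That peak covered the whole gene of 725 bp, but its summit lay 875 bp from the start, past the 3′ end. H4c3 followed with 6.52 and 66 reads. The peak shared by H2ac18 and H3c14 had a fold of 5.85, with 154 reads, the one at H4c14 a fold of 5.64 over 2274 bp, the widest of the group, and the one shared by H3c15 and H2ac19 a fold of 5.52 with 166 reads, the most of the group. Except for the first 2, these folds lay below the list's median of 6.24.

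For p300 the highest fold was 5.82 at H4c14, with 87 reads at the summit. The peak between H2bc6 and H1f4 had 5.74 and 36 reads, the one at H4c3 had 5.68 and 48 reads, and the one at H2ac18 and H3c14 had 5.51 and 129 reads. By −log10 q the peak at H2ac18 and H3c14 was the first of the group, at 49.4, and ranked 511 of the 6512 in the list. Its H3K4me3 partner had a −log10 q of 63.5. The highest p300 and the highest H3K4me3 fold thus lay at different genes, and H1f2, first by H3K4me3, had a p300 fold of 3.75.

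**Figure D4:**
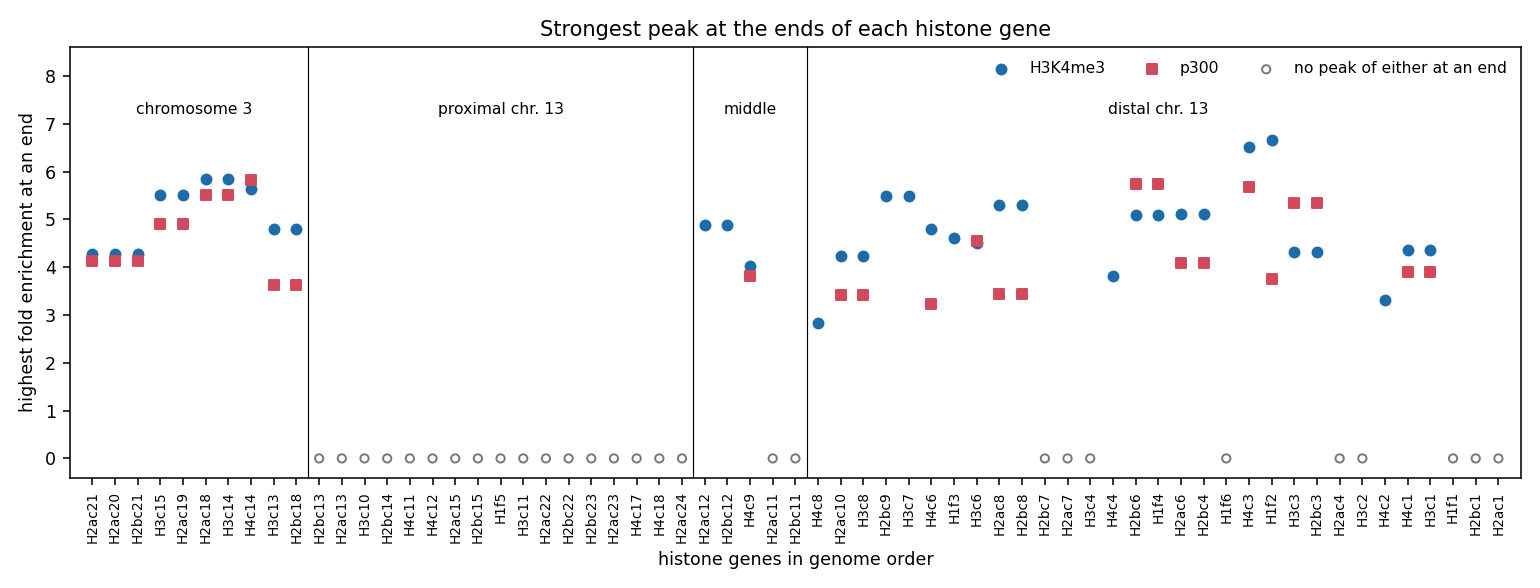
Highest fold enrichment of an H3K4me3 peak (blue circles) and a p300 peak (red squares) at the ends of each of the 63 histone genes, in genome order with lines between clusters. Open circles at the foot of the plot are genes without a peak of either, for which no fold exists. H3K4me3 folds run between 2.83 and 6.66 and p300 folds between 3.24 and 5.82, and the proximal chromosome 13 cluster holds open circles only.

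Peaks at histone genes were low in fold. The 26 H3K4me3 peaks had a median fold of 4.56, against 6.72 for 11647 peaks at other protein-coding gene ends, and 2 of the 26 reached the list's median. Their median summit held 68.5 reads, against 117, and their median −log10 q was 23.7, against 53.0. Their median background was 13.9 reads, against 16.5, and their median width 898 bp, against 980 bp. The 16 p300 peaks also had a low fold, with a median of 4.11 against 5.77 for 2429 peaks at other gene ends, but for another mix of values. Their summits held a median of 49.0 reads, against 37.0, and their background was 12.0 reads, against 5.54. Their width was 925 bp, against 627 bp. Both the reads and the background of 15 of the 16 were at or above the list's medians of 39.0 and 5.97.

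**Figure D5:**
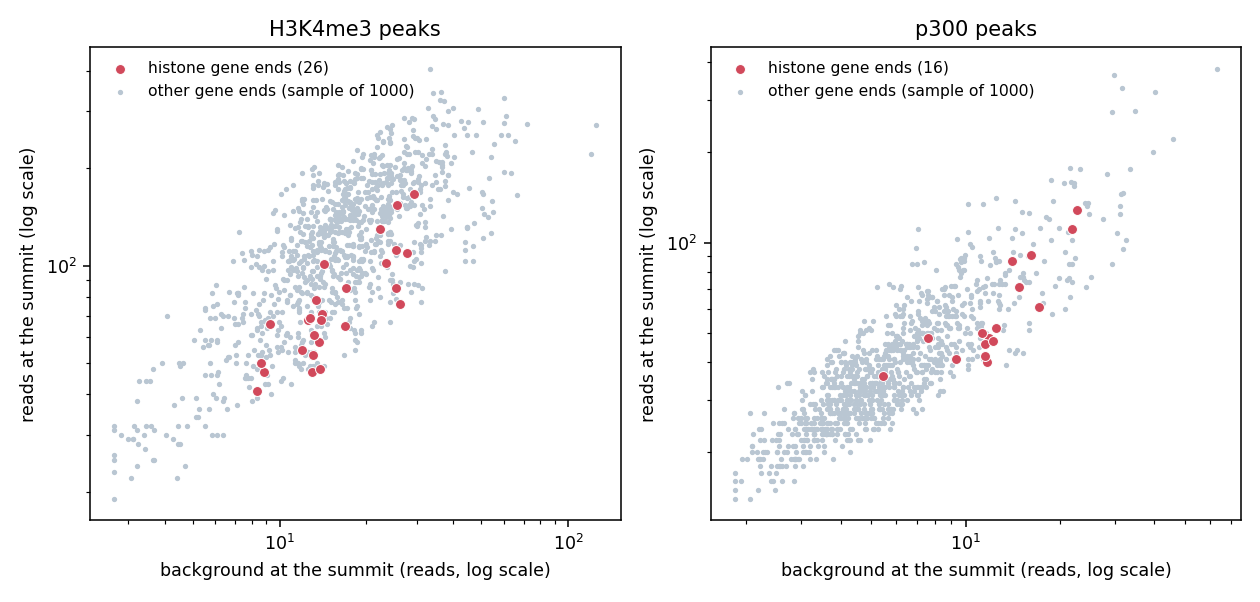
Reads at the summit against background reads, both on log scales, for the peaks at histone gene ends (red) and a random sample of 1000 peaks at other protein-coding gene ends (grey), with H3K4me3 on the left and p300 on the right. In the p300 panel 15 of the 16 red points lie at a background of at least 5.97 reads, the list's median; in the H3K4me3 panel most red points lie in the lower part of the grey cloud.

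The 2 marks overlapped at most of these peaks. Of the 26 H3K4me3 peaks 17 overlapped a p300 peak (65.4%, 44.3 to 82.8), against 21.6% at other gene ends. Peaks with a strong H3K4me3 signal overlap p300 more often in the whole list, and the histone gene peaks were weak. Among peaks with a −log10 q below the list's median, 12 of 21 at histone genes overlapped p300 (57.1%), against 6.88% at other gene ends. Of the 16 p300 peaks 15 overlapped H3K4me3 (93.8%, 69.8 to 99.8), close to the 97.6% at other gene ends. The exception was a p300 peak at H4c6, of fold 3.24, which lay beside that gene's H3K4me3 peak. In the 15 overlapping pairs the summits lay a median of 166 bp apart, against 173 bp at other gene ends.

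Measured to the nearest histone gene start with a known strand, 14 of 26 H3K4me3 summits lay downstream and 12 upstream, while 5 of 16 p300 summits lay downstream and 11 upstream. Within 1 kb of such a start were 23 H3K4me3 and 15 p300 summits. Over these alone the median position was 85.0 bp for H3K4me3 and -243 bp for p300, positive values being downstream. The promoter table gives no strand for 5 members (H4c14, H3c7, H2bc21, H2bc4 and H3c1). Peaks at these are measured to a neighbour, and those at H4c14 to a distant gene. An H3K4me3 summit inside H3c7 counts as -1397 bp from H2bc9, and one inside H3c1 as -728 bp from H4c1. The p300 summit between H4c1 and H3c1 counts as -346 bp from H4c1. Counting gene starts only, 29 of the 58 histone genes with a strand had H3K4me3 (50.0%), against 49.5% of all such protein-coding genes, and 21 had p300 (36.2%), against 13.3%.

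The promoters below show the letters upstream of the member of highest p300 fold in each class, among those with a window in the table, and of 1 gene of the peak-free cluster, H4c11. H4c14, the H4 gene of highest p300 fold, has none, so the next, H4c3, is shown. They are RefSeq GRCm38.p6 sequences of the 250 bases before the annotated start, given 5′ to 3′ on the gene's strand. Capitals mark exact matches, on either strand, to motifs known from histone promoters: TATAAA, the TATA box; CCAAT, bound by NF-Y; AAACACA, the H1 box; and GGTCC, the core of the site that HINFP binds at H4 genes. H1f4 (chr13:23622559-23622808, minus strand) and H2bc6 (chr13:23621095-23621344, minus strand) lie under the same H3K4me3 peak, which covers 67 and 250 of their bases. H2ac18 (chr3:96245247-96245496, plus strand) and H3c14 (chr3:96246435-96246684, plus strand) are the strong chromosome 3 pair, H4c3 is at chr13:23698459-23698708, minus strand and H4c11 at chr13:21734784-21735033, plus strand.
H1f4: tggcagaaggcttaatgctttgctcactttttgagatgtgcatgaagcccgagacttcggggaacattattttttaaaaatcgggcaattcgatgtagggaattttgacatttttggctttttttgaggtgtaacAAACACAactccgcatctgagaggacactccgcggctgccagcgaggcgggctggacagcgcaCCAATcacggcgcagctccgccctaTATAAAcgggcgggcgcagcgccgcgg
H2ac18: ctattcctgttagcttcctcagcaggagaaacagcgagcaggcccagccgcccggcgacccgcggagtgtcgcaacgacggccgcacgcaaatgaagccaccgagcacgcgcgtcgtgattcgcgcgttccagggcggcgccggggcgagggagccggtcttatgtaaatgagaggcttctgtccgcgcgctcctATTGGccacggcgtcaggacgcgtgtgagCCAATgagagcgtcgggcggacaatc
H2bc6: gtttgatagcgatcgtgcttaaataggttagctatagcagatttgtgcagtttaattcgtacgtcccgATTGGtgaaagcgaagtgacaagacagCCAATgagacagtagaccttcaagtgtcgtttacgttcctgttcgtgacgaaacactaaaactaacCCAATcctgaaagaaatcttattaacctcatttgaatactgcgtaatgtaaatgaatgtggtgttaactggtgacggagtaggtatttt
H3c14: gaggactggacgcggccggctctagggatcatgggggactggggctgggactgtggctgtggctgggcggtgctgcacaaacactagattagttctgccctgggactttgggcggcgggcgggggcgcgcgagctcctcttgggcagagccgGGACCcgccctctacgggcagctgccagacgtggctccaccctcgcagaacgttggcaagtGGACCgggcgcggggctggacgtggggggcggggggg
H4c3: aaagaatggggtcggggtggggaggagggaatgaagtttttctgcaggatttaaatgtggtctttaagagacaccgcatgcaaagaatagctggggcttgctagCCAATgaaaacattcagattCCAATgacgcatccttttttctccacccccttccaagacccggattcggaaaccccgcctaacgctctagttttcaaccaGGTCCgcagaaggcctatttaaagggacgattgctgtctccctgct
H4c11: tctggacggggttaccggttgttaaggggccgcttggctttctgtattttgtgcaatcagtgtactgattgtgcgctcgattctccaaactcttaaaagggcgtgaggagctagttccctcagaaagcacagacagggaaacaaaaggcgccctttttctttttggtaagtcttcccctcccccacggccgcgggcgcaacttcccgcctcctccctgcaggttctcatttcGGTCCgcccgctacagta

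The p300 peaks covered all 250 bases of the H2bc6 and H3c14 windows and none of the H1f4, H2ac18 and H4c3 windows, whose p300 peaks lay on the gene side. The p300 summit assigned to H1f4 lay past its 3′ end, 26 bp upstream of the annotated start of H2bc6. H2bc6 is annotated over 37455 bp, and the window printed belongs to its far start. Its other window in the table, at chr13:23585921-23586220, overlaps a further H3K4me3 peak, of fold 4.51, that lies at no annotated gene end. No p300 peak lay within 1 kb of that other window, so H2bc6 counted as having p300 through its far start alone.

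In 59 windows of 58 histone genes, CCAAT was found in 83.1%, against 33.8% of all 32851 windows in the table. Every H1, H2A and H2B window held it, and 3 of 11 H4 windows did. TATAAA was in 47.5% of the windows, against 12.4%. The octamer ATTTGCAT, bound by Oct-1, was in 22.0%, against 1.60%, and all 13 windows with it were of H2A (6 of 17) or H2B genes (7 of 15). AAACACA was in 5 of 6 H1 windows and in 15.3% of the histone windows, against 6.25%. GGTCC was in 10 of 11 H4 windows, while over all classes it was as common as elsewhere, 39.0% against 39.8%. The E2F-like letters TTTGGCG were in none of the 59, against 1.26%. Some of these motifs can overlap on a promoter, and neighbouring pairs share part of their windows, so windows were not independent.

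These letters were found in both marked and unmarked genes. CCAAT was in 80.6% of 31 windows with H3K4me3 at the gene and 85.7% of 28 without. TATAAA was in 38.7% and 57.1%, the octamer in 29.0% and 14.3%, AAACACA in 9.68% and 21.4%, and GGTCC in 35.5% and 42.9%. The median GC content was 44.8% in both, and 52.4% over all windows.

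Genes among and beside the clusters were marked in part. Of the 6 other protein-coding genes inside the spans, all in the distal cluster, Hfe, which encodes a regulator of iron uptake, had H3K4me3 (fold 5.39) and p300 (5.38), while Trim38 and the phosphate transporter genes Slc17a1, Slc17a2, Slc17a3 and Slc17a4 had neither. Within 50 kb of the clusters Bola1, next to the chromosome 3 cluster, was the other protein-coding gene with p300 (fold 5.23). Of the 30 tRNA genes there 17 had H3K4me3 and 1 had p300, n-TSgct5. Some of them share a peak, and with no share over all tRNA genes computed these counts cannot be called particular to the clusters. In the chromosome 3 cluster a p300 peak of fold 6.22, higher than any at a histone gene end, lay away from gene ends, at 96226523 to 96227447, and overlapped no H3K4me3 peak.

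Histone genes outside the clusters were set beside them. Of 15 genes for replication-independent variants, which are made throughout the cell cycle or in special cells, 8 had H3K4me3 at an end (53.3%) and 2 had p300 (13.3%), the H2A.Z genes H2az2 (fold 9.20) and H2az1 (5.56). Both shares were close to those of all protein-coding genes, 50.5% and 13.5%. Without H3K4me3 at an end were H3f3b, H3f3c, Macroh2a2, H2ab2, H1f10, H1f8 and H1f7. H3f3b, which encodes H3.3, had an H3K4me3 peak inside the gene, more than 1 kb from either end. Of 4 genes that carry older cluster-type symbols but lie outside the rule, H4f16 had H3K4me3 (fold 4.99), H2aw had H3K4me3 (5.97) and p300 (5.47), and H2bu2 and H4bc24 had neither. H4bc24 adjoins the proximal cluster.

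Genes that serve histone production were also set beside them. Of 28 genes for histone transcription, mRNA processing and chaperones, 27 had H3K4me3 at an end (96.4%), the exception being Nfyc, a subunit of NF-Y, which had peaks inside the gene. Of the 28, 10 had p300 (35.7%), with the highest folds at Pou2f1 (Oct-1, 7.63), Chaf1b (a subunit of the chromatin assembly factor CAF-1, 7.28), Zfp473 (ZFP100, which binds the SLBP complex, 6.92) and Npat (6.59). The H3K4me3 fold at Npat was 8.19. The p300 share of this list was 35.7% and that of the histone genes 42.9%, and the difference was not tested. Among all protein-coding genes 50.5% had H3K4me3 and 13.5% had p300.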

How the data were processed

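Libraries were made with 1 µg of antibody and 18 PCR cycles and read as 150 bp pairs, per the labels' protocols. Positions are on mm10, and deepTools, Picard 2.22.4, Bowtie2 2.2.5 and Trim Galore were used upstream, per the submitters' processing notes. No source used here names the peak caller, a control library or the treatment of repeated sequence. The authors deposited 1 narrowPeak list per antibody, with a score, a signal value, −log10 p and −log10 q for each peak. These are the authors' values. With no peak caller named, the signal was read, from the values themselves, as a fold ratio of summit over background. All reads and background values rest on that reading.

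Peaks off the nuclear chromosomes were left out (24 H3K4me3 and 17 p300). Summit reads and background were solved from the deposited fold ratio and −log10 p as a Poisson tail, and whole reads matched within 0.002 for 99.91% of H3K4me3 and 99.71% of p300 peaks. This step was checked on simulated peaks. Intervals are exact (Clopper-Pearson) and cover counting error only. They treat genes or peaks as independent, which members that share a peak are not. The solved summit reads may include PCR copies, which are not independent molecules. Peaks overlapped when they shared at least 1 bp. Promoters came from RefSeq (58 of 63 members matched). Python 3.11.15, pandas 2.3.3, SciPy 1.17.1 and matplotlib 3.10.9 were used. Alternatives changed the windows, overlaps, cluster gap and peak strength and, unplanned, left out the proximal cluster. Genes to name were all members without H3K4me3, the 6 of highest fold per mark, and list or neighbouring genes by mark. Members and lists were chosen with earlier results of these data known.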

Additional observations from a re-analysis of the deposited data

How the results depend on the processing

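The 18 results were recomputed under 81 alternatives, of which 25 moved them past the limits set and 56 did not. Joining genes up to 50 kb or 1 Mb apart gave 6 or 3 clusters in place of 4; the proximal and middle clusters lie 202 kb apart at a limit of 200 kb. Within 20 kb or 100 kb there were 35 or 66 H3K4me3 peaks in place of 50. Counts of H3K4me3 at gene ends rest mostly on peaks below the list's medians; for p300 this holds by fold and −log10 q but not by reads. With peaks at or above the list's median fold, H3K4me3 lay at the ends of 2 members in place of 35 (2 peaks in place of 26) and p300 at 1 in place of 27 (1 peak in place of 16). Within 50 kb the counts were 37 members (10 peaks) for H3K4me3 and 10 members (3 peaks) for p300, and the shares of peaks overlapping the other mark were 0. The variant list then had 2 genes with H3K4me3 and 1 with p300, and the supply list 17 and 5. With peaks at or above the median −log10 q, H3K4me3 lay at 9 members (5 peaks) and p300 at 9 (6 peaks), within 50 kb H3K4me3 lay at 36 members (14 peaks) and p300 at 38 members (9 peaks), and the median H3K4me3 width was 1395 bp and fold 5.64. With summit reads at or above the median, chosen after seeing the data, H3K4me3 lay at 13 members (9 peaks), or 20.6% against 41.5% of all protein-coding genes, and p300 at 25 members (15 peaks), or 39.7% against 6.32%. The same comparison by fold gave 1.59% against 6.93% for p300, so the order of members and all genes turns with the measure of strength. No paired analysis was possible because each antibody has 1 library and no result comes from a test. The lists hold summits of at least 15 (H3K4me3) and 14 (p300) reads and −log10 q of at least 5.04 and 5.11; signal at unmarked members below these was not detectable here.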
